A study of Mus musculus with 16 samples.

Results

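The p53 target genes described here are Mdm2, Ccng1, Zmat3, Phlda3, Aen, Trp53inp1, Fas, Eda2r, Btg2 and Plk2. These 10 of the 23420 genes in the RNA files were listed by name, with no threshold on their values. All 10 were found in the RNA files and in the histone-mark files, which hold 22269 gene intervals, and 9 of the 10 passed the filter on low RNA counts, the exception being Eda2r. The cells were mouse CD4 T cells with or without Ezh2, which encodes the methyltransferase of Polycomb repressive complex 2 and writes H3K27me3, the trimethyl mark on lysine 27 of histone H3. The Ezh2-deleted cells came from mice with floxed Ezh2 alleles and a CD4Cre transgene (Ezh2 fl/fl.CD4Cre, labelled Ezh2-/-), and the control cells from Ezh2 fl/fl mice without Cre. The genotype contrast therefore also carries the Cre, and the Cd4-driven Cre acts in the T lineage from the thymus on, before the cells were taken. Flow-sorted naive cells of both genotypes were activated with plate-bound anti-CD3 (5 ug/ml) and soluble anti-CD28 (1 ug/ml). Th0 cultures received 50 U of IL-2, and iTreg cultures, which drive cells toward an induced regulatory T cell state, received IL-2 at 200 U/ml together with TGF-b1 at 5 ng/ml. The titles give day 4 for Th0 and day 5 for iTreg, whereas the protocol gives harvest on day 4 for all. RNA was sequenced in 3 biological replicates of each genotype in each culture, and H3K27me3 in 2 of each genotype in Th0 cells. The mice's ages and a background strain are not given in the labels.

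The tumour suppressor p53, encoded by Trp53, is a transcription factor that accumulates after DNA damage and other stress and switches on genes for cell cycle arrest, repair and apoptosis. Mdm2, itself a p53 target, is the ubiquitin ligase that sends p53 to degradation, and Mdm4 is its partner. Cdkn2a, a classic Polycomb target, encodes p16Ink4a and Arf, and Arf inhibits Mdm2. In T cells the pathway limits proliferation and survival after activation.

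RNA libraries held 21910114 to 28443427 counted reads, and H3K27me3 libraries 11124172 to 15103496. Libraries are named after their titles, and the 3 values of a group follow the order of the title numbers. Among Ezh2-deleted libraries this is Ezh2KO.165, then Ezh2KO.174 and Ezh2KO.175 for Th0, and for iTreg it is Ezh2KO.150 and Ezh2KO.153, then Ezh2KO.165. RNA values are given as CPM, the usual count per unit of library depth, with libraries scaled by the trimmed mean of M values (TMM). Along the principal component that held 46.5% of the variance, the iTreg libraries Ezh2KO.165 and control 177 stood apart at -109 and -98.2, against -44.9 to 1.87 in the other 4 iTreg libraries. Their summed CPM over 15 proliferation genes was 1394 and 4714, against 5733 to 7079 in those 4. Several differences that rest on these libraries are given with and without them. Correlations and levels per length are given with them alone. T cell markers such as Cd3e were present in every library (139 to 349 CPM). Foxp3, the defining factor of regulatory T cells, was at 836 to 956 CPM in iTreg control libraries and at 64.2 to 89.3 CPM in iTreg Ezh2-deleted ones. Its mean in the latter was still above that of Ezh2-deleted Th0 cells (78.3 against 3.94 CPM). Of 4 regulatory T cell markers 3 were lower in Ezh2-deleted iTreg cells, against 7.26% of all genes, and Ikzf2 was not called. The label iTreg is therefore used for the culture. Ezh2 RNA was lower in every Ezh2-deleted library, at 150 to 170 CPM against 306 to 319 in Th0 controls and at 47.9 to 121 against 162 to 247 in iTreg controls. In Th0, 30.1% of all genes were lower without overlap in this way. The log2 difference of Ezh2 did not pass in Th0 (-0.99, SE 0.30, adjusted p = 0.0618, edgeR) and passed in iTreg (-1.18, SE 0.30, adjusted p = 0.0235). The Ezh2 counts run over the whole gene, which includes exons that may lie outside the deleted stretch.

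Ezh2-deleted cells had more RNA of Zmat3 in both cultures, and in iTreg also of Ccng1 and Phlda3. In Th0, 1 of the 9 tested members rose (Zmat3) and none fell at an adjusted p under 0.05, and none was lower at an unadjusted p under 0.05 in either culture. Of all 12845 genes tested, 12% changed in Th0 (8.74% higher and 3.22% lower). In iTreg, 3 of 9 rose and none fell, against 16.7% of all genes (9.45% higher and 7.26% lower). DESeq2 called 3 members in Th0 (Zmat3, Mdm2 and Phlda3) and 4 in iTreg (Zmat3, Ccng1, Phlda3 and Aen), all higher. It also called more of all genes than edgeR, 2366 of 14830 in Th0 and 2969 of 15173 in iTreg. For Btg2 it gave no p-value in any RNA comparison. The members' median log2 fold change was 0.21 in Th0 and 0.41 in iTreg, against -0.0017 and 0.013 over all genes tested. These counts come from edgeR's quasi-likelihood test with Benjamini-Hochberg adjustment over all genes in 1 fit of the 12 libraries, whose spread includes that of the 2 iTreg libraries that stand apart.

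Without those 2 libraries, 6 of the 9 members passed in Th0 (Zmat3, Ccng1, Mdm2, Phlda3 and Aen higher, Fas lower), but so did 51.6% of all genes. The same 6 members passed with the 6 Th0 libraries alone, where 52.1% of all genes did. In iTreg without the 2 libraries, 6 members passed (Zmat3, Ccng1, Mdm2, Phlda3 and Aen higher, Btg2 lower), against 57.1% of all genes. With the 6 iTreg libraries alone, Zmat3 was the single member that passed, against 4.34% of all genes.

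**Figure D1:**
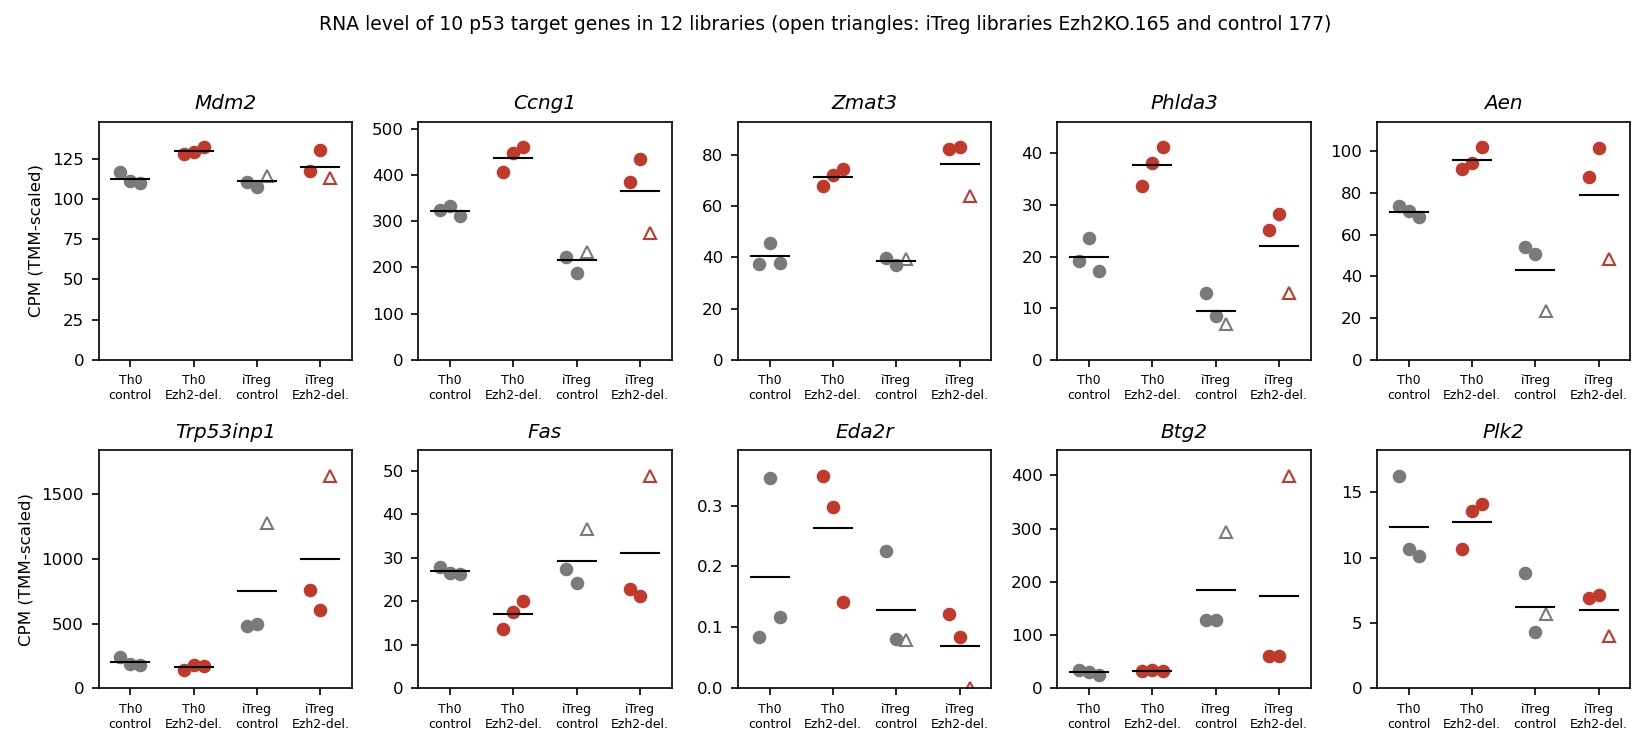
RNA level of each of the 10 members in 12 libraries, in TMM-scaled CPM on linear axes that start at 0 (gray: control, red: Ezh2-deleted, black lines: group means, open triangles: iTreg libraries Ezh2KO.165 and control 177). Zmat3, Ccng1 and Phlda3 show Ezh2-deleted libraries above or level with all controls of the same culture, while Trp53inp1 and Btg2 differ mainly by culture and are highest in the open triangles.

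Zmat3, which encodes a zinc finger protein that binds RNA, separated the genotypes in both cultures. Its Th0 level was 37.6, 45.8 and 37.8 CPM in control 173, 176 and 177 and 68.1, 72.0 and 74.7 CPM in the Ezh2-deleted libraries. In iTreg it was 39.7, 37.2 and 39.4 CPM in control 154, 155 and 177 and 82.2, 83.0 and 64.2 CPM in the Ezh2-deleted libraries. Every Ezh2-deleted library thus lay above every control, and the lowest of them was an iTreg library that stands apart. In Th0, 30.1% of all genes had their 3 Ezh2-deleted values above all 3 controls, and in iTreg 12.9% did. The log2 fold change was 0.83 (SE 0.12, adjusted p = 0.00214, edgeR) in Th0 and 0.98 (SE 0.12, adjusted p = 0.000579) in iTreg. Zmat3 passed in both cultures in each of the 12 fits that left out 1 library.

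Ccng1 encodes cyclin G1, which binds protein phosphatase 2A and takes part in the feedback on Mdm2. It was the most abundant member per length in Th0 controls, at 92.4 ± 3.1 RPKM, that is CPM per kb of transcript length (SD, n = 3). Its level was 324, 332 and 311 CPM in Th0 controls 173, 176 and 177 and 406, 446 and 459 CPM in the Ezh2-deleted libraries. In iTreg it was 222, 188 and 234 CPM in control 154, 155 and 177 and 384, 434 and 275 CPM in the Ezh2-deleted libraries. The genotypes did not overlap in either culture. The iTreg log2 fold change of 0.76 (SE 0.16) passed (adjusted p = 0.00907, edgeR), and the Th0 one of 0.44 (SE 0.16) did not (adjusted p = 0.117). With the 6 Th0 libraries alone the Th0 adjusted p was 2.57e-05, and with the 6 iTreg libraries alone the iTreg adjusted p was 0.136.

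Phlda3 encodes a pleckstrin homology protein that competes with the kinase Akt for membrane lipids. It stood at 19.2, 23.6 and 17.1 CPM in Th0 controls 173, 176 and 177 and at 33.6, 38.2 and 41.1 CPM in the Ezh2-deleted libraries. In iTreg it stood at 12.9, 8.58 and 6.85 CPM in control 154, 155 and 177 and at 25.2, 28.3 and 12.8 CPM in the Ezh2-deleted libraries. The Th0 groups did not overlap, whereas in iTreg Ezh2KO.165 was level with control 154. The log2 fold change was 1.23 (SE 0.31, adjusted p = 0.0207, edgeR) in iTreg, past the threshold in 8 of 12 fits without 1 library. The adjusted p was 0.0659, 0.0729, 0.0848 and 0.0636 without Ezh2KO.150, Ezh2KO.153, control 155 and control 177. It was 0.91 (SE 0.30, adjusted p = 0.0831) in Th0, and there the adjusted p was 0.00049 with the 6 Th0 libraries alone.

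Mdm2, the feedback ligase, differed by less. It was at 117, 111 and 110 CPM in Th0 controls 173, 176 and 177 and at 128, 129 and 132 CPM in the Ezh2-deleted libraries. The groups did not overlap, and the log2 difference of 0.21 (SE 0.09) did not pass (adjusted p = 0.174, edgeR). In iTreg the values were 111, 108 and 114 CPM in controls 154, 155 and 177 and 117, 130 and 113 CPM in the Ezh2-deleted libraries. There the groups overlapped (log2 difference 0.12, SE 0.09, adjusted p = 0.458). With the 6 Th0 libraries alone its adjusted p was 0.00158.

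Aen encodes a nuclease that takes part in DNA breakdown during apoptosis. Its Th0 values were 73.5, 71.3 and 68.4 CPM in controls 173, 176 and 177 and 91.4, 94.2 and 102 CPM in the Ezh2-deleted libraries, without overlap. In iTreg it had 54.2, 50.9 and 23.4 CPM in controls 154, 155 and 177 and 87.5, 101 and 48.4 CPM in the Ezh2-deleted libraries. The library Ezh2KO.165 lay below control 154 and control 155 but above control 177. Neither log2 difference passed (0.43, SE 0.32, adjusted p = 0.513 in Th0, and 0.88, SE 0.32, adjusted p = 0.0911 in iTreg, edgeR). The adjusted p was 5.9e-05 and 7.25e-07 without the 2 iTreg libraries that stand apart.

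The 2 libraries that stand apart are 1 of each genotype, and their values are set side by side as a single pair with no test. They are not matched, since their proliferation sums differ (1394 and 4714 CPM) and Xist was high in Ezh2KO.165 alone. Ezh2KO.165 stood above control 177 for Zmat3 (1.63-fold), Ccng1 (1.18-fold), Phlda3 (1.88-fold) and Aen (2.07-fold), and not for Mdm2 (0.99-fold). The means of the other 2 Ezh2-deleted iTreg libraries over the other 2 controls gave 2.15-fold, 1.99-fold, 2.50-fold, 1.80-fold and 1.13-fold for the same genes in that order. These 4 genes thus had the same direction inside the pair and outside it, as had Trp53inp1 (1.28-fold and 1.38-fold). Other members did not: Btg2 had 1.36-fold inside and 0.47-fold outside, Fas 1.33-fold and 0.86-fold, and Plk2 0.71-fold and 1.07-fold.

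**Figure D2:**
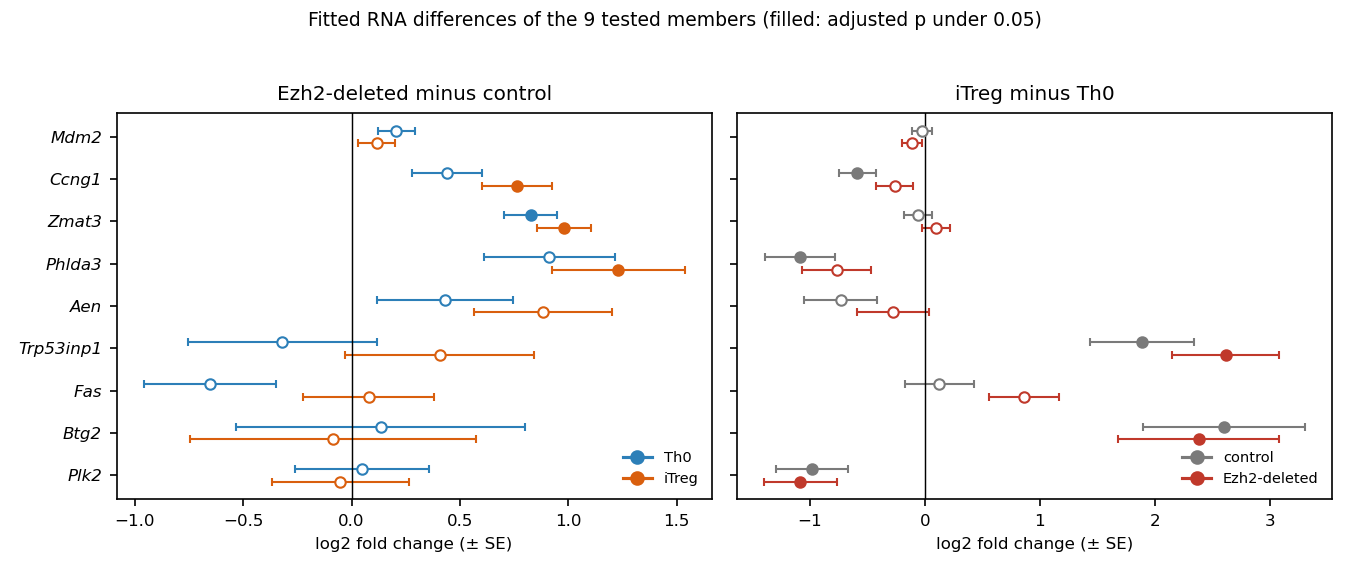
Fitted log2 fold changes of the 9 tested members with standard errors (bars), Ezh2-deleted minus control on the left and iTreg minus Th0 on the right; filled points have an adjusted p under 0.05 in the fit of 12 libraries. Zmat3 is filled in both cultures on the left (0.83 and 0.98), and Trp53inp1 and Btg2 reach 1.89 to 2.62 on the right.

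Promoter sequences show where 3 of these genes carry letters like those p53 binds. The p53 half-site consensus is a 10-base pattern of 3 purines, a C, 2 bases that are A or T, a G and 3 pyrimidines, and it reads the same on both strands. RefSeq windows from 250 bases before to 50 bases after a gene's start (build GRCm38.p6) were available for 8 of the 10 members, in 9 windows since Aen has 2 overlapping ones. An exact half-site was found in Mdm2, Ccng1 and Aen, and in 8.36% of all 32851 windows. A full site, of 2 adjoining half-sites with C and G intact in both and at most 2 other letters off, was found in Ccng1 alone among the members, 195 bases before its start and with 1 letter off, and in 0.326% of all windows. The windows are shown because Ccng1 and Aen are 2 of the members with higher mean values in Ezh2-deleted cells, Mdm2 is the feedback gene, and Phlda3 is the member that carried the highest H3K27me3 density in Th0 controls. Capitals mark half-sites, or the full site in Ccng1, and Phlda3 has no whole one in this window. The last letters of its window match the start of the half-site pattern, and the window's edge cuts off the rest.
Ccng1, chr11:40755237-40755536, minus strand: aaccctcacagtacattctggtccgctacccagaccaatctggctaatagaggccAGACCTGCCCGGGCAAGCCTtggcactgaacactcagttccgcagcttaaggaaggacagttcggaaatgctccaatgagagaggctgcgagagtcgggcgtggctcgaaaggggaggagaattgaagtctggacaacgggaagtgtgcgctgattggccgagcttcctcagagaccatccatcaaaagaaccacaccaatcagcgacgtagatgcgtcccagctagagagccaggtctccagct
Mdm2, chr10:117710709-117711008, minus strand: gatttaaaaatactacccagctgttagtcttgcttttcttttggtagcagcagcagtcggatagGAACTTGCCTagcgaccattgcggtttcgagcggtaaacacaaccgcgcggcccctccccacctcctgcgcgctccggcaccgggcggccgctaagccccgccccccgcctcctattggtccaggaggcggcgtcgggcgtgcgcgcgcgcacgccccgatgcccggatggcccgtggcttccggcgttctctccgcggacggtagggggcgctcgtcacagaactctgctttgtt
Aen, chr7:78895677-78895976, plus strand: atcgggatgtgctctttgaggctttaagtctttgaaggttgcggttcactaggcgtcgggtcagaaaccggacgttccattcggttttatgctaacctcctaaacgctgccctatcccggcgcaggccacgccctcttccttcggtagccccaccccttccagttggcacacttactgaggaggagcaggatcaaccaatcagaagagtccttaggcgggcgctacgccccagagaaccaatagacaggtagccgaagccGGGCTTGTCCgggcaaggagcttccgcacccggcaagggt
Phlda3, chr1:135765835-135766134, plus strand: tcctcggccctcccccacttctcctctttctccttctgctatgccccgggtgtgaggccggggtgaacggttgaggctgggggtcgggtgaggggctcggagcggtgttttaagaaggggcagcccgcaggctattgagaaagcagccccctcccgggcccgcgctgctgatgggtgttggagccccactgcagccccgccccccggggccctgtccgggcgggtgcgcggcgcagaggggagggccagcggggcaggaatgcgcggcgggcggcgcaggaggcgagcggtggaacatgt
A match is a likeness of letters in this window. Btg2, Plk2, Fas and Eda2r also had no whole match in theirs.

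Trp53inp1 encodes a stress-induced protein of the nucleus and of autophagosomes. In Th0 it was at 244, 189 and 178 CPM in controls 173, 176 and 177 and at 139, 179 and 172 CPM in the Ezh2-deleted libraries, with the groups overlapping. In iTreg it was at 485, 499 and 1282 CPM in controls 154, 155 and 177 and at 757, 605 and 1641 CPM in the Ezh2-deleted libraries. The libraries that stand apart were the highest of each iTreg group. The genotype log2 difference was -0.32 (SE 0.44, adjusted p = 0.795) in Th0 and 0.41 (SE 0.44, adjusted p = 0.647) in iTreg by edgeR.

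Fas, the death receptor that triggers apoptosis when bound by Fas ligand, was lower in Ezh2-deleted Th0 libraries. It had 27.8, 26.4 and 26.3 CPM in controls 173, 176 and 177 and 13.6, 17.4 and 20.1 CPM in the Ezh2-deleted libraries, without overlap, as had 30.1% of all genes in this direction. The log2 difference of -0.66 (SE 0.30) did not pass in the fit of 12 libraries (adjusted p = 0.235, edgeR) and did with the 6 Th0 libraries alone (adjusted p = 0.00247). In iTreg Fas had 27.3, 24.1 and 36.6 CPM in controls 154, 155 and 177 and 22.9, 21.3 and 48.7 CPM in the Ezh2-deleted libraries. Its iTreg difference was 0.08 (SE 0.30, adjusted p = 0.980) and turned to -0.22 without the 2 libraries that stand apart.

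Eda2r, a receptor of the tumour necrosis factor receptor family for ectodysplasin A2 and encoded on the X chromosome, had 0 to 9 counts per library. In Th0 the counts were 2, 9 and 3 in controls 173, 176 and 177 and 9, 8 and 4 in the Ezh2-deleted libraries. In iTreg they were 6, 2 and 2 in controls 154, 155 and 177 and 3, 2 and 0 in the Ezh2-deleted libraries, where a count of 0 allows up to 3. Within each culture the genotypes overlap, and the counts were too low for the filter of the edgeR test. DESeq2, which kept the gene, did not call it in any RNA comparison.

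Btg2 encodes an antiproliferative adaptor of the deadenylase complex that shortens messenger RNA tails. Its Th0 values were 35.2, 31.0 and 24.9 CPM in controls 173, 176 and 177 and 32.2, 35.1 and 32.5 CPM in the Ezh2-deleted libraries. In iTreg they were 129, 129 and 294 CPM in controls 154, 155 and 177 and 60.2, 60.3 and 399 CPM in the Ezh2-deleted libraries. In the Ezh2-deleted group the library that stands apart thus lay far above both others, which were below every control. The iTreg genotype difference was -0.09 (SE 0.66, adjusted p = 0.961, edgeR). It was -1.61 (adjusted p = 0.00456) without Ezh2KO.165 and -1.10 (adjusted p = 1.85e-05) without both libraries, and 0.42 (adjusted p = 0.785) without control 177.

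Plk2, a polo-like kinase induced by stress and growth signals, was near the bottom of the list. It had 16.3, 10.7 and 10.2 CPM in Th0 controls 173, 176 and 177 and 10.6, 13.5 and 14.1 CPM in the Ezh2-deleted libraries. In iTreg it had 8.81, 4.29 and 5.67 CPM in controls 154, 155 and 177 and 6.94, 7.12 and 4.04 CPM in the Ezh2-deleted libraries. The genotypes overlapped in both cultures, with log2 differences of 0.05 (SE 0.31) and -0.05 (SE 0.31).

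Whether the genotype difference itself differed between cultures was tested as an interaction. None of the 9 members passed with edgeR, nor any of those to which DESeq2 gave a p-value, against 4.49% of all genes with edgeR. No member had an unadjusted p under 0.05 either, the smallest being 0.118 for Fas, whose difference was 0.73 higher in iTreg (SE 0.43, adjusted p = 0.511). Without the 2 libraries that stand apart, 4 members passed, and 41.2% of all genes did. These were Ccng1 (0.55), Trp53inp1 (0.78) and Aen (0.41), more positive in iTreg, and Btg2 (-1.23).

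Between cultures, Trp53inp1 and Btg2 rose in iTreg and Plk2 fell, in both genotypes, by edgeR. Among controls 5 of 9 members passed, against 31.4% of all genes (19.9% higher and 11.5% lower), namely Trp53inp1 and Btg2 higher and Ccng1, Phlda3 and Plk2 lower. Among Ezh2-deleted cells 3 of 9 passed, against 25.4% of all genes (16.6% higher and 8.75% lower). The log2 difference of iTreg from Th0 was 1.89 (SE 0.45, adjusted p = 0.0129) in control and 2.62 (SE 0.46, adjusted p = 0.00540) in Ezh2-deleted cells for Trp53inp1, and 1.27 and 2.06 without the 2 libraries that stand apart. For Btg2 it was 2.60 (SE 0.70, adjusted p = 0.0211) and 2.38 (SE 0.70, adjusted p = 0.0349), and without the 2 libraries that stand apart 2.09 and 0.86. In Ezh2-deleted cells Btg2 missed the threshold with limma-voom (1.77, adjusted p = 0.0695). Plk2 fell by 0.98 (adjusted p = 0.0392) and 1.08 (adjusted p = 0.0344) on the log2 scale. DESeq2 also called Trp53inp1 and Plk2 in both genotypes, and among Ezh2-deleted cells it called Phlda3 lower and Fas higher as well. Of all genes it called 5428 of 14145 among controls and 4786 of 13802 among Ezh2-deleted cells.

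Ccng1 fell by 0.58 (adjusted p = 0.0220) and Phlda3 by 1.08 (adjusted p = 0.0247) among controls. Among Ezh2-deleted cells their differences were -0.26 (adjusted p = 0.217) and -0.77 (adjusted p = 0.0811). Zmat3 and Mdm2 were nearly level between cultures, with log2 differences of -0.06 (SE 0.12) and -0.02 (SE 0.09) among controls. Among controls the 5 calls kept their sign in all 12 fits without 1 library. Trp53inp1 passed in 10 of them, Btg2, Ccng1 and Phlda3 in 8 and Plk2 in 4. The number of members that passed ran from 0 (without Th0 control 176) to 6 (without iTreg Ezh2KO.165). Over all genes, 2004 of 13133 and 8195 of 13025 passed in these 2 fits. Among Ezh2-deleted cells the members that passed ran from 1 to 5, beside 1110 to 4316 of all genes. All of these culture values also differ in IL-2, TGF-b1 and, by the titles, day, which cannot be told apart.

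Over the 12 libraries the members formed a block and a counter-block. The Pearson correlation of log2 CPM, given as a description over libraries that share groups, was 0.94 between Ccng1 and Phlda3, 0.92 between Aen and Phlda3, 0.85 between Mdm2 and Ccng1 and 0.78 between Zmat3 and Ccng1. Trp53inp1 and Btg2 correlated at 0.91 and Fas with Trp53inp1 at 0.73, whereas Plk2 and Trp53inp1 stood at -0.83. Trp53inp1, Btg2 and Fas each had their highest values in the iTreg libraries that stand apart, and no correlation was computed without those libraries. The genes outside the list most like the members' mean standardized profile were Mctp2 (0.95), Wnt5b (0.95), Arhgap32 (0.94), Tpd52 (0.94) and Prmt2 (0.94).

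**Figure D3:**
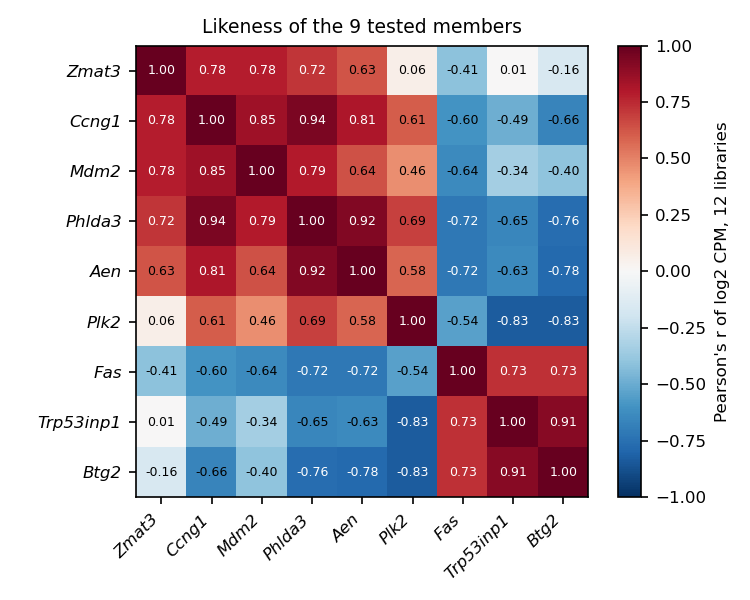
Pearson correlation of log2 CPM between the 9 tested members over 12 RNA libraries, from -1 (blue) to 1 (red). Zmat3, Ccng1, Mdm2, Phlda3 and Aen are positively correlated with each other, and Trp53inp1, Btg2 and Fas form a second positive block that is negative with most of the first.

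Per length, the order of the members differed between cultures. In Th0 controls Ccng1 (92.4 ± 3.1 RPKM, SD, n = 3) was followed by Mdm2 (37.2 ± 1.2) and Trp53inp1 (18.8 ± 3.3), all beyond each other's SD. Aen (14.1 ± 0.50) and Fas (13.2 ± 0.41) both lay within the SD of Phlda3 (13.6 ± 2.2), though not within each other's. Btg2 (9.84 ± 1.7), Zmat3 (5.19 ± 0.60) and Plk2 (4.42 ± 1.2) came last of the tested members, the last pair within their spread. Eda2r, which did not pass the filter on low counts, lay below them at 0.016 ± 0.012 RPKM. In iTreg controls Trp53inp1 (69.8 ± 42.1), Ccng1 (61.6 ± 6.8) and Btg2 (59.6 ± 30.9) were not separable, and Mdm2 (36.6 ± 1.1) was next. Of the genes tested in Th0 controls, 93.8% had an RPKM at or below that of Ccng1 and 40.0% at or below that of Plk2.

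Of 21 tested regulators of p53, 1 was called in Th0 and 5 in iTreg, against 12% and 16.7% of all genes. Trp53 itself was at 207 to 214 CPM in Th0 controls and 216 to 223 CPM in Th0 Ezh2-deleted cells (log2 difference 0.06, SE 0.25, adjusted p = 0.946, edgeR). In iTreg it was at 96.0 CPM in Ezh2KO.165 and 130 in control 177, against 189 to 197 in the other 4 libraries (difference -0.11, adjusted p = 0.851). Cdkn2a rose in Th0 (5.20, adjusted p = 0.00749) and the other 20 did not pass. In iTreg Cdkn2a (4.40, adjusted p = 0.0105) and the damage kinase Atr (0.38) rose, although Cdkn2a was at 1.08 CPM in iTreg Ezh2KO.165 and did not pass there with limma-voom (adjusted p = 0.198). The DNA-damage adaptor Trp53bp1 (-0.42), Mdm4 (-0.43, adjusted p = 0.0208) and the kinase Hipk2 (-0.79) fell there, and Mdm4 had an adjusted p of 0.0572 to 0.0773 without Ezh2KO.150, Ezh2KO.153 or control 155. Hipk2 was named after its values were seen.

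Other targets of p53 split by gene. Of 14 tested cell cycle and repair targets, 2 rose in Th0, the translesion polymerase Polk (0.50) and the Cdk inhibitor Cdkn1a (1.88, SE 0.49, adjusted p = 0.0334), and Sfn fell (-0.73). Cdkn1a passed in 5 of 12 fits without 1 library, with an adjusted p of 0.0534 to 0.127 without iTreg control 155 or any 1 of the 6 Th0 libraries. It stood at 48.9 to 62.6 CPM in Th0 controls and 197 to 220 CPM in Th0 Ezh2-deleted cells. Its iTreg values were 69.5, 50.6 and 39.5 CPM in controls 154, 155 and 177 and 101, 136 and 23.9 CPM in the Ezh2-deleted libraries, and overlapped (0.71, adjusted p = 0.400). In iTreg Polk (0.65) rose and the repair gene Ddb2 (-0.71) fell.

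Of 15 apoptosis targets, Perp (2.83) and the autophagy gene Dram1 (1.80) rose in Th0, and Dram1 (3.35), Perp (2.98) and Ei24 (0.44) rose in iTreg while Trp53i11 (-1.32) fell. Bax, which opens the mitochondrial membrane, had log2 differences of 0.29 (adjusted p = 0.532) and 0.62 (adjusted p = 0.0857), and Bbc3, which encodes Puma, -0.48 and 0.40. Of 14 targets in metabolism and other roles, 2 rose in Th0, the phospholipid carrier Pltp (2.60) and the long noncoding RNA Trp53cor1 (1.99), which lies next to Cdkn1a, and Pml (-0.71) and Ddit4 (-0.68) fell. In iTreg Pltp (2.85), Trp53cor1 (1.83), Dcxr (1.02) and Tap1 (0.67) rose and Cd80 (-1.19) fell. Pltp and Trp53cor1 were also low, with means of 0.579 and 0.437 CPM in Th0 controls and 3.55 and 1.75 CPM in Ezh2-deleted Th0 cells. In iTreg their means were 1.04 and 0.580 CPM in controls and 7.55 and 2.07 CPM in Ezh2-deleted cells. The median over 15 proliferation genes was -0.13 in Th0 and -0.37 in iTreg. The median log2 fold change of the cell cycle and repair targets was 0.13 in Th0 and -0.09 in iTreg, that of the apoptosis targets 0.25 and 0.40, and that of the targets in metabolism and other roles 0.19 and 0.08, beside the members' 0.21 and 0.41.

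Many of these list calls did not pass in every fit without 1 library. Leaving aside Hipk2 and the iTreg value of Trp53cor1, the lists of regulators and targets gave 24 named calls, and all 24 kept their sign in the 12 fits without 1 library. Of these, 10 passed in all 12 fits, namely Cdkn2a and Pltp in both cultures and Trp53bp1, Polk, Dram1, Perp, Trp53i11 and Dcxr in iTreg. Tap1 and Cd80 each missed the threshold in 1 fit (adjusted p of 0.0602 and 0.0649). The calls that passed least often were Ddb2 (2 of 12 fits) and Atr (3) in iTreg and Dram1 (4), Cdkn1a (5) and Trp53cor1 (5, with an adjusted p of up to 0.143) in Th0. With limma-voom, Perp, Dram1 and Trp53cor1 in Th0 and Perp in iTreg also missed the threshold (adjusted p of 0.0631 to 0.0693).

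Markers of other cell types moved with genotype in both cultures. In Th0 all 8 B cell markers rose, and their summed level was 74.5 to 124 CPM in controls and 213 to 489 CPM in Ezh2-deleted libraries, highest in Ezh2KO.165, with none of the 8 at 0. In iTreg 4 of the 8 fell and the other 4 did not pass. Their iTreg sum was 25.2 to 28.1 CPM in controls and 53.5, 60.1 and 18.9 CPM in the Ezh2-deleted libraries, of which Cd74 made up 49.2, 56.3 and 13.1 CPM. The sum was thus higher than in controls in Ezh2KO.150 and Ezh2KO.153, the 2 libraries that had the highest Zmat3. Pax5 was at 0 in Ezh2KO.153. In Th0 it was the other way, since Ezh2KO.165 had the highest B cell sum and the lowest Zmat3 (68.1 CPM) of the Ezh2-deleted libraries. Of 4 tested markers of CD8 T and NK cells, 2 rose in Th0 and 3 in iTreg. The sum of all 5 was 7.97 to 11.6 CPM in Th0 controls and 15.6 to 19.0 CPM in Th0 Ezh2-deleted libraries, and 36.3 to 46.8 CPM in iTreg controls and 135 to 186 CPM in iTreg Ezh2-deleted libraries, with Ncr1 at 0 in all 6 iTreg libraries. Of 3 tested dendritic cell markers, 1 rose in Th0 and 3 in iTreg, with sums of 0.768 to 1.21 CPM in Th0 controls, 2.49 to 2.83 CPM in Th0 Ezh2-deleted libraries, 1.02 to 1.46 CPM in iTreg controls and 3.64 to 8.19 CPM in iTreg Ezh2-deleted libraries. Neither of 2 tested myeloid markers passed between genotypes with edgeR (Fcgr3 had an unadjusted p under 0.05 in Th0), and the iTreg sum of the 7 listed was 11.1 and 25.5 CPM in the 2 libraries that stand apart against 2.25 to 2.73 CPM in the other 4. The summed level of 8 T cell markers was 3027 to 3165 CPM in Th0 controls and 1625 to 1939 CPM in Th0 Ezh2-deleted cells. The part of these markers in the members' differences was not tested. In bulk RNA, fewer cells of a type and less RNA per cell cannot be told apart.

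Over the members' gene bodies, H3K27me3 was mostly low in control Th0 cells, and Phlda3 was the single member called lower without Ezh2. Density is given as CPM per kb of the gene interval (build mm10), scaled by library size. It was 1.79 and 2.21 over Phlda3 (chr1:135766119-135769136, plus strand) in control 33 and control 7 and 1.14 and 1.01 in Ezh2KO.10 and Ezh2KO.9, with both controls above both Ezh2-deleted libraries. The log2 difference was -0.89 (SE 0.30, adjusted p = 0.0243, edgeR). With 1 library left out it ran from -1.03 to -0.72, and it did not pass without control 7. The mean control density put Phlda3 at the 94.6th percentile of 12592 expressed genes, the sole member in the top 10% of that ranking (density above 1.47), although it was not in the top 10% of all intervals. Cdkn1a, no member but the best known p53 target, lay next to it with 1.82 and 2.15 in controls and 1.01 and 0.968 in Ezh2-deleted cells (adjusted p = 0.00597).

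The other members carried less. Mdm2 had 0.452 and 0.405 in control 33 and control 7 and 0.960 and 1.06 in Ezh2KO.10 and Ezh2KO.9, and Btg2 0.341 and 0.387 against 1.21 and 1.07. Both densities were higher without Ezh2, as was the median of expressed genes, which went from 0.511 to 0.875. Of the 10 members 5 were called higher (Zmat3, Mdm2, Aen, Btg2 and Fas) and 1 lower (Phlda3), against 52.9% of all 20376 intervals tested (32.2% higher and 20.6% lower). The log2 differences of the 5 ran from 0.54 (Fas) to 1.64 (Btg2), and the median of expressed genes was 0.69, with 75.8% of them positive. Neither an input nor a spike-in library entered here, so a density is a share of each library's reads and not an absolute amount of the mark. Under TMM scaling, which moved the median of all intervals from 0.21 to -0.02, the calls were 3 higher (Mdm2, Aen and Btg2) and 1 lower (Phlda3, -1.12, adjusted p = 0.00464), and the share of calls that were higher went from 61.0% to 46.5% over all intervals.

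Ccng1 had 0.572 and 0.274 in control 33 and control 7 and 0.588 and 0.784 in Ezh2KO.10 and Ezh2KO.9, from 23 to 60 reads per library, and did not pass (0.70, SE 0.37, adjusted p = 0.136). Plk2, at 1.08 and 1.28 in controls and 1.21 and 1.10 in Ezh2-deleted cells, differed by -0.03 (SE 0.27). Trp53inp1 (0.83, adjusted p = 0.0527) missed the threshold. Eda2r, on the X chromosome, had 0.528 in control 33 and 1.57 in control 7, beside 2.35% and 5.74% of those libraries' reads on the X chromosome, and 0.991 and 0.930 in Ezh2-deleted cells. Its control values differed by more than either differed from the Ezh2-deleted ones. With Ezh2KO.10 or Ezh2KO.9 left out, a lone library stood for the Ezh2-deleted genotype, and the loss of calls was shared by all intervals. Those fits cannot show whether a member's call holds. With 1 of the 4 libraries left out, the log2 difference ran from 1.15 to 1.31 for Mdm2, 0.94 to 1.11 for Aen and 1.54 to 1.74 for Btg2. It ran from 0.48 to 1.02 for Zmat3 and from 0.40 to 0.70 for Fas.

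**Figure D4:**
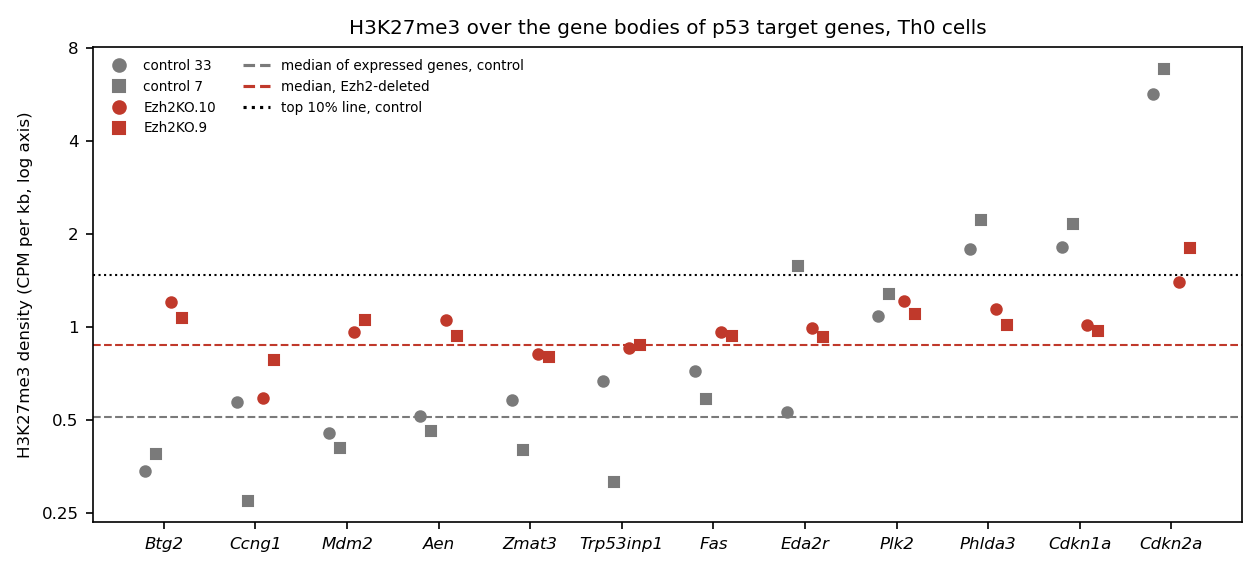
H3K27me3 density in Th0 cells (CPM per kb of gene interval, log axis) for the 10 members ordered by control mean, with Cdkn1a and Cdkn2a for reference (gray: control 33 and 7, red: Ezh2KO.10 and Ezh2KO.9). Phlda3 is the member with both controls above the line of the top 10% (1.47), and most others go from near the control median of expressed genes (0.511) toward the Ezh2-deleted median (0.875).

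Set side by side, RNA and mark went in opposite directions in Phlda3, whose Th0 RNA was 1.88-fold that of controls (adjusted p = 0.0831 in the fit of 12 libraries, 0.00049 with the Th0 libraries alone). Zmat3 was higher in both, with RNA at 1.77-fold and a mark density of 0.579 and 0.398 in control 33 and control 7 against 0.819 and 0.800 in Ezh2KO.10 and Ezh2KO.9 (0.73, adjusted p = 0.0253), which missed the threshold under TMM scaling (adjusted p = 0.0783). Its control density lay at the 46.6th percentile of expressed genes. The RNA and H3K27me3 libraries carry different numbers, so the values do not come from the same samples by their labels.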

How the data were processed

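The 10 members and all gene lists were chosen with earlier results of these data known, so they are not independent of them. RNA and H3K27me3 ChIP libraries of mouse CD4 T cells were used (12 and 4). Per the submitters' processing notes, reads were trimmed with Trimmomatic 0.30, aligned to mm10 with TopHat2 2.0.6 (RNA) or Bowtie2 2.1.0 (ChIP) and counted with featureCounts 1.4.2. The authors deposited raw counts per gene (RNA) and, per the file headers, raw counts per gene interval (ChIP). The file headers show no strand option, so reads of an antisense partner cannot be told apart.

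From these counts TMM-scaled CPM, RPKM (with the length column of the files) and tests were computed. The RNA test was that of edgeR 4.0.16 under R 4.3.3 (TMM, filterByExpr with a minimum count of 10, 12845 genes, robust quasi-likelihood F test, all 12 libraries in 1 fit of 4 groups). H3K27me3 was tested the same way on 20376 intervals, scaled by library size. Tests were two-sided with Benjamini-Hochberg adjustment over all features and a threshold of 0.05, and were tested on simulated data. The simulated data held no library that stands apart, so they cannot show how the tests behave with such libraries. Standard errors are those of the fitted log2 differences. Alternatives were DESeq2 1.42.0, RLE scaling, no filter, libraries left out, fits of 6 libraries alone and, added after seeing the data, limma-voom (limma 3.58.1) without and with a replicate block. The design text calls the replicates biological. A p-value sets a group difference against the spread between these samples, which the RNA fit of 12 libraries estimates over all 4 groups. Replicate libraries differed by more than counting noise (chi-square per degree of freedom of 3.70 or more over genes). Intervals of counts cover counting error only, and 3 counts is the limit a count of 0 allows.

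Genes were named by a rule: the 10 members, Ezh2, the 6 reference genes Trp53, Mdm4, Cdkn2a, Cdkn1a, Bax and Bbc3, up to 4 called genes per list and comparison with the smallest p, and the 5 genes most like the members' mean profile. The lists were p53 regulators, 3 lists of other p53 targets, proliferation genes, and markers of T, regulatory T, B, myeloid, dendritic, CD8 T with NK, and erythroid cells and of sex. Of the erythroid markers 1 was tested, and it did not pass. Xist was high in the Ezh2KO.165 libraries of both cultures, which are the female ones by this measure. Promoter windows come from RefSeq, and Zmat3 and Trp53inp1 had none in the table.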

Additional observations from a re-analysis of the deposited data

How the results depend on the processing

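With RLE scaling and with no filter on low counts the members called were as many as reported in each RNA comparison. DESeq2 called 3 in Th0, and Zmat3, Mdm2 and Phlda3 were those, against 2366 of 14830 genes. Leaving out 1 library at a time gave 1 to 5 members in Th0, against 799 to 3529 of all genes, and 2 to 5 in iTreg, against 1376 to 5763. It gave 0 to 2 for the difference between cultures, against 271 to 2552. For iTreg against Th0 it gave 0 to 6 among controls, against 2004 to 8195, and 1 to 5 among Ezh2-deleted cells, against 1110 to 4316. These fits tested 13025 to 13142 genes. The highest Th0 and iTreg genotype counts came without iTreg Ezh2KO.165, for the members and for all genes. H3K27me3 calls ran from 0 to 9 (edgeR, 0 without Ezh2KO.10 or Ezh2KO.9), and members in the top 10% of density from 1 to 2. A lone library left in an arm was assumed to vary like the others.

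Without both iTreg libraries that stand apart, 6 members passed in Th0, 6 in iTreg, 4 for the difference between cultures and 6 between cultures in Ezh2-deleted cells. Of all genes 51.6%, 57.1% and 41.2% passed in the first 3, and 7481 of 12978 in the last. Without both Ezh2KO.165 libraries 3, 5, 1 and 1 members passed in that order, against 2555, 5391, 1805 and 2501 of 12950 genes. Without both control 177 libraries 0 members passed between cultures among controls (edgeR) and 1 among Ezh2-deleted cells, against 1452 and 2772 of 13023 genes. With the 6 compared libraries alone 6 passed in Th0 (52.1% of all genes) and 1 in iTreg (4.34%). Between cultures in Ezh2-deleted cells 1 passed, against 596 of 12469 genes. In the top 10% of all intervals by H3K27me3 density there were 0 members, and with the threshold at the top 20% of expressed genes 3 (Phlda3, Eda2r and Plk2).

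Several uncalled log2 values changed sign. Without both libraries that stand apart the iTreg genotype value was 0.092 for Plk2 and -0.22 for Fas, the difference between cultures 0.042 for Plk2, and the culture value among controls -0.059 for Fas. Without both Ezh2KO.165 libraries the iTreg genotype value was -0.15 for Trp53inp1, 0.17 for Plk2, -0.41 for Fas, 0.15 for Trp53 and -0.12 for Bbc3. Without both control 177 libraries the Th0 value was -0.077 for Plk2, the iTreg value 0.42 and the difference 0.42 for Btg2, and the culture value among controls -0.077 for Fas. With 1 library left out at a time the Th0 genotype value ran from -0.078 to 0.29 for Plk2 and from -0.024 to 0.10 for Mdm4. The iTreg genotype value ran from -0.15 to 1.02 for Trp53inp1, -0.26 to 0.28 for Plk2, -1.61 to 0.42 for Btg2, -0.41 to 0.28 for Fas, -0.28 to 0.15 for Trp53 and -0.11 to 0.99 for Bbc3. The difference between cultures ran from -0.35 to 0.23 for Plk2 and -1.74 to 0.29 for Btg2. The culture value among controls ran from -0.11 to 0.039 for Zmat3, -0.043 to 0.0029 for Mdm2 and -0.061 to 0.25 for Fas. The H3K27me3 value ran from -0.71 to 0.86 for Eda2r and -0.14 to 0.094 for Plk2. The cause of these changes was not tested.

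The groups compared share at most 1 number, so no fixed replicate block could be fitted. The numbers of Ezh2KO.165 and control 177 recur in both cultures, and limma-voom with a replicate block as a random effect, chosen after seeing the data, gave these libraries a correlation of -0.0087. It called 1 member in Th0, 3 in iTreg, 0 for the difference between cultures, 5 between cultures among controls and 2 among Ezh2-deleted cells. Over all 12845 genes it called 1441, 2083, 509, 3841 and 2960 in that order. The same numbers of members were called by limma-voom with no block, and the iTreg value of Fas was -0.013 with the block and -0.012 with none. With the block Cdkn1a in Th0 just missed the threshold, which it passed with no block. Depth was similar across RNA libraries, and Eda2r had too few reads to pass the filter on low counts. The spread of the iTreg libraries entered every comparison that shares the fit of 12 libraries. For the iTreg genotype comparison that fit called 3 members and 2147 of 12845 genes. With the 6 iTreg libraries alone, 1 member and 539 of 12409 genes were called. The small number of libraries, 2 per genotype, limited H3K27me3.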
